A study of Homo sapiens with 18 samples.

Results

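Collagen genes were examined in parental, Holoclone and Paraclone cells of the human pancreatic ductal adenocarcinoma (PDAC) lines Panc1 and Panc89. Every gene whose symbol has the form of a collagen chain, COL followed by the type number, A and the chain number, was taken, which gave 44 of the 40266 genes in the table. Panc1 originates from a primary tumor and serves as the mesenchymal-like PDAC model, whereas Panc89 originates from a lymph node metastasis and serves as the epithelial model. The 6 groups were parental Panc1, Panc1 Holoclone, Panc1 Paraclone, parental Panc89, Panc89 Holoclone and Panc89 Paraclone cells, with 3 libraries each and 18 in all. The labels give no treatment for any group, and all cells were kept in the same medium. The Holoclone and Paraclone variants were each grown from a single cell and chosen by the shape of their colonies, with Holoclones regarded as rich in cancer stem cells and Paraclones as more differentiated. Each clonal variant was 1 clone, and its 3 libraries came from different passages. The p-values therefore measure the spread between passages of 1 line or clone and not the spread between clones.

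Collagens are matrix proteins built from 3 chains that wind around each other into a triple helix, and each chain is encoded by its own gene. Fibril-forming collagens such as types I, III, V and XI make the fibrils of the interstitial matrix, type IV collagen forms the network of the basement membrane beneath epithelia, type VI forms beaded filaments, and FACIT collagens attach to the surface of fibrils. Type XIII and type XVII are anchored in the cell membrane, type XVII being a component of the hemidesmosome, and type XVIII is a basement membrane proteoglycan that releases endostatin. In PDAC, most of the fibrillar collagen of the dense stroma is made by stellate cells and fibroblasts, while basement membrane chains are also made by the tumor cells.

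Levels are given as TPM, the share of a transcript among all transcripts of a library after division by transcript length, so that genes can be compared with each other. They carry no sequencing depth, so no counting error and no limit for a value of 0 can be stated. Between 12932 and 14199 genes per library reached 1 TPM. The epithelial markers EPCAM, CDH1, KRT8, KRT18 and KRT19 summed to between 2590 and 5020 TPM in every library. The sum hides differences between the lines. Mean CDH1 and EPCAM were 75.3 and 185.4 TPM in parental Panc89 cells and at most 2.84 and 29.2 TPM in the Panc1 clones. Parental Panc89 cells had more CDH1, EPCAM and KRT19 and less KRT8 than parental Panc1 cells. KRT18 did not differ past the threshold used below. The 8 fibroblast or stellate cell markers together reached 4.18 to 20.7 TPM. RGS5 reached 1 TPM in at least 1 library of every group, and THY1 did so in every Panc1 group. PDGFRB reached it in the Panc1 Holoclone and LUM in parental Panc89 cells. POSTN was listed at 0 in all libraries. Of 4 endothelial markers, PECAM1 and CDH5 carried the sum of 55.2 to 69.1 TPM in parental Panc89 cells, compared to 1.01 to 8.90 TPM in the Panc89 clones and at most 0.416 TPM in Panc1 cells. The sum of 5 leukocyte markers, of which CD68 was the only one to reach 1 TPM in Panc1 cells, lay between 12.8 and 151 TPM. The part of these marker levels in the collagen results was not tested.

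The chains of type IV collagen lie in the genome as head-to-head pairs, and the shared region between the starts is shown here because the results on type IV chains turn on these pairs. In GENCODE 44 on GRCh38, COL4A1 spans chr13:110148963-110307157 on the minus strand and COL4A2 chr13:110305812-110513209 on the plus strand, with an overlap of 1346 bases. In the RefSeq annotation of the same build (GRCh38.p14), their starts lie 127 bases apart. COL4A6 (chrX:108155607-108439497, minus strand) and COL4A5 (chrX:108439838-108697545, plus strand) are arranged in the same manner, with 2 RefSeq starts of COL4A6 that lie 380 and 1416 bases from that of COL4A5. Of the 44 members, 32 had at least 1 RefSeq start window. The regions printed are chr13:110307158-110307257 (100 bases, plus strand), chrX:108439588-108439837 (250 bases before COL4A5, plus strand) and chrX:108439498-108439708 (211 bases before the outer COL4A6 start, minus strand), without bases annotated as exon. Capitals mark matches on either strand to CCAAT or GGGCGG.
COL4A1/COL4A2 shared region: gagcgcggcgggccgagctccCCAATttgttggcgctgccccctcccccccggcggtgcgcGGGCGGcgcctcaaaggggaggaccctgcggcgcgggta
COL4A5 upstream: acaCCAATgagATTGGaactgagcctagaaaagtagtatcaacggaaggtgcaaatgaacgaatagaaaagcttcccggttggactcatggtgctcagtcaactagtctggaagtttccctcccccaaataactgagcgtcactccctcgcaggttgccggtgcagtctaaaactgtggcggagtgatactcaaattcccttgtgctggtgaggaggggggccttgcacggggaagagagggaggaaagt
COL4A6 upstream: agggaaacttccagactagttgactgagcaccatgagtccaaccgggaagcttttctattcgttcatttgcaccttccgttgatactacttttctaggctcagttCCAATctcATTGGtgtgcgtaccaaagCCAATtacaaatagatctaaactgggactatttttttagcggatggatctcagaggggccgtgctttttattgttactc
The shared COL4A1 and COL4A2 region held 1 CCAAT and 1 GGGCGG, which 18.9% and 29.8% of the 34943 start windows hold at this length, and its GC content of 78.0% lay at percentile 90.6 of these windows. The COL4A5 region held 2 CCAAT matches (32% of windows hold at least 1) at a GC content of 51.2%, and the COL4A6 region held 3 (29% of windows). These 2 regions overlap on opposite strands, so the facing pair of CCAAT matches in them is the same pair. TATAAA and CACCTG, which were searched as well, had no match in the 3 regions. COL4A4 and COL4A3 form a further head-to-head pair on chromosome 2 with starts 419 bases apart, and both were under 1 TPM in every library.

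The summed level of the 44 collagen genes was highest in Panc1 Paraclone cells, at 1430 ± 92.3 TPM (SD, n = 3). It was 687.7 ± 30.5 TPM in parental Panc1 and 640.0 ± 46.3 TPM in Panc1 Holoclone cells. The Panc89 groups had lower sums of 340.3 ± 18.7 TPM in parental, 406.5 ± 55.2 TPM in Holoclone and 309.7 ± 19.2 TPM in Paraclone cells. In these bulk libraries, fewer cells that express a gene and less of its RNA per cell cannot be told apart. The composition also differed between the lines. COL18A1 alone made up 72.4% of the collagen TPM in parental Panc1, 83.7% in the Panc1 Holoclone and 56.1% in the Panc1 Paraclone, where COL5A2 added 26.7%. In parental Panc89 cells, COL17A1 (18.3%) and COL4A2 (17.7%) were the leading chains. COL17A1 reached 40.7% in Panc89 Holoclone cells, and COL4A2 led with 25.3% in Panc89 Paraclone cells. Between 17 and 20 members per group had a mean of at least 1 TPM, and 4 to 9 had a mean of at least 10 TPM.

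**Figure D1:**
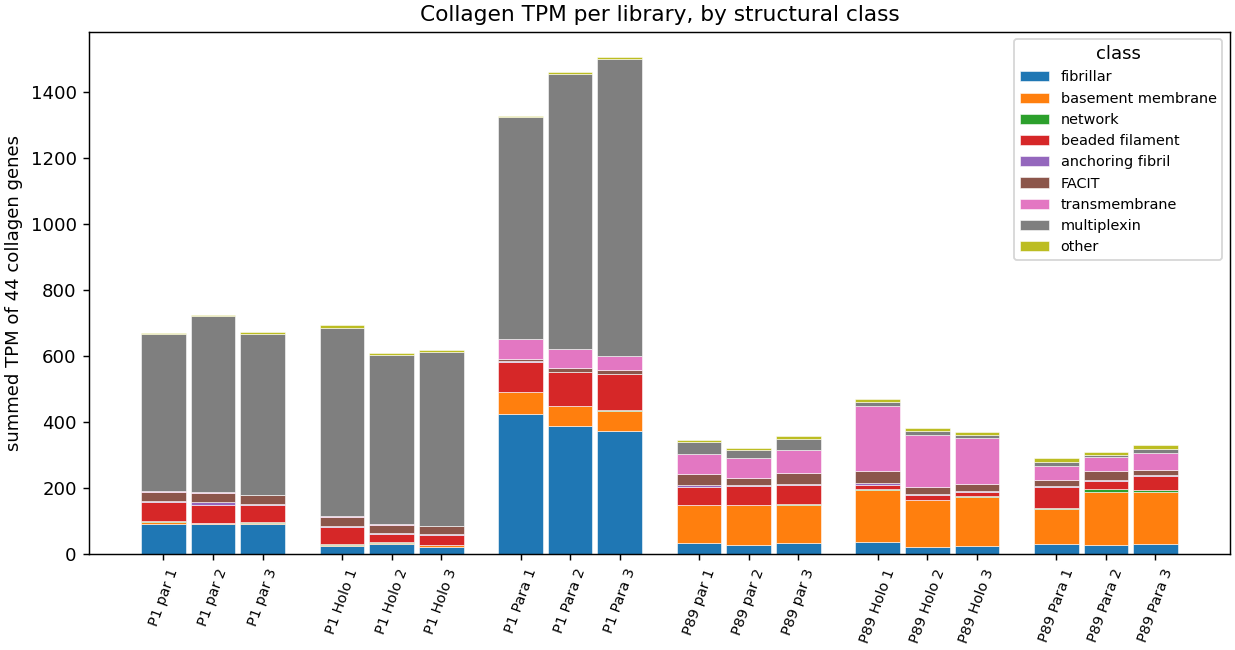
Stacked bars show the summed TPM of the 44 collagen genes in each of the 18 libraries, divided by structural class. The 3 Panc1 Paraclone bars are the tallest, the grey multiplexin share (COL18A1) fills most of each Panc1 bar, and basement membrane and transmembrane chains fill most of the Panc89 Holoclone bars.

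Of the 44 members, 28 had at least 1 TPM in at least 3 libraries and were tested together with all other genes that passed the same filter. The other 16 were under 1 TPM in every library. They comprised the interstitial chains COL1A2, COL2A1, COL3A1, COL5A3 and COL24A1, the glomerular type IV chains COL4A3 and COL4A4, the network chain COL10A1, the type VI chains COL6A5 and COL6A6, the FACIT chains COL9A1, COL14A1, COL19A1 and COL20A1, the membrane chain COL23A1 and the COL18A1 relative COL15A1. The highest value among them was 0.541 TPM, for COL19A1 in Panc89 Holoclone replicate 1, and none was at 0 in all 18 libraries. Log2 fold changes below are differences of mean log2(TPM + 1) with their standard error (SE), and the added 1 makes them too small for genes with levels around 1 TPM or below. A gene counts as changed at a Benjamini-Hochberg adjusted p under 0.05 in limma over all 16093 genes.

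Parental Panc89 cells expressed a different set of collagens than parental Panc1 cells. Type IV chains and COL17A1 were higher in Panc89, whereas COL18A1, COL5A2 and COL11A1 were higher in Panc1. Of the 28 members tested, 23 passed the test, 13 higher and 10 lower in Panc89, against a background of 66.0% of all genes tested that passed it. The median log2 fold change was 0.24 for the collagen genes and -0.18 for all genes. The median absolute change was 1.33 and 0.74, respectively. COL7A1, COL8A1, COL9A3, COL11A2 and COL21A1 did not pass, with log2 fold changes between -0.39 and 0.47. Median-of-ratios scaling moved the median of all genes from -0.18 to 0.02 and left 22 collagen calls, 13 of them higher.

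**Figure D2:**
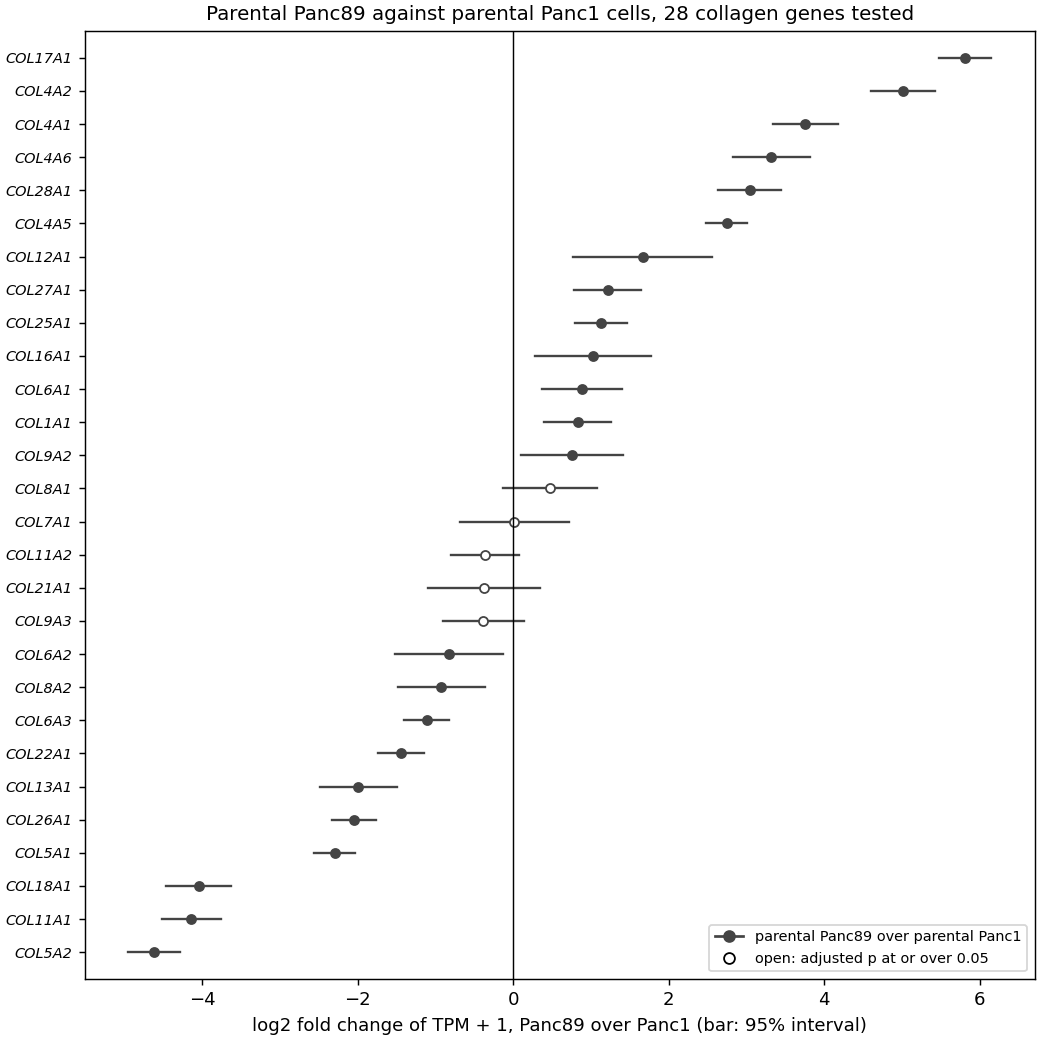
Log2 fold change of TPM + 1 in parental Panc89 over parental Panc1 cells for the 28 collagen genes tested (bars, 95% interval from limma; filled points, adjusted p under 0.05). COL17A1 and 4 type IV chains lie between 2.75 and 5.82 on the Panc89 side, and COL18A1, COL11A1 and COL5A2 lie below -4 on the Panc1 side.

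In Panc1 cells, the Holoclone expressed less of most called collagens than the Paraclone. COL5A2, COL13A1 and all 4 tested type IV chains were lower, with log2 fold changes from -1.95 to -5.66, whereas COL1A1 and COL9A3 were higher. In total 18 of 28 members passed, 6 higher and 12 lower in Holoclone cells, where the background was 37.3% of all genes. The median change was -0.22 for collagen genes and 0.19 for all genes, of which 4402 were higher and 1604 lower. With median-of-ratios scaling the median of all genes was 0.00 and 18 members passed, 5 higher and 13 lower.

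In Panc89 cells, the clones differed in other chains. COL17A1, COL4A5, COL4A6 and COL27A1 were higher in Holoclone than in Paraclone cells, while COL4A1, COL6A1 and COL6A2 were lower. Here 15 of 28 members passed, 6 higher and 9 lower, where the background was 35.7% of all genes. The median change was 0.05 for collagen genes and 0.09 for all genes, and the median absolute change 0.69 and 0.37.

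The Holoclone against Paraclone change was then compared between the lines as an interaction term (Panc89 minus Panc1). Of 28 members, 16 had a different change, 10 with a more positive and 6 with a more negative value in Panc89, where the background was 35.1% of all genes. The median of this difference was 0.15 for collagen genes and -0.11 for all genes. After upper quartile or median-of-ratios scaling, 15 members passed, of which 11 were more positive and 4 more negative. Among the members that met the test in each line, COL17A1, COL4A5 and COL4A6 were lower in the Panc1 Holoclone and higher in the Panc89 Holoclone than in the Paraclone of the same line, and COL1A1 had the opposite order. COL4A1, COL4A2 and COL13A1 were lower in the Holoclone of both lines, and their difference between the lines passed. The limits for COL4A2 and COL13A1 are given below. COL6A1 and COL6A2 were lower in the Holoclone of both lines as well. Their difference between lines of -0.08 (95% interval -0.81 to 0.65) and 0.26 (-0.72 to 1.23) did not pass. COL9A2 and COL21A1 were higher in the Holoclone of both lines. For COL21A1 the size of the change depended on 1 library. Without Panc89 Holoclone replicate 3 its Panc89 change was 0.54 (adjusted p = 0.0159) and the difference between the lines was -0.56 and passed (adjusted p = 0.0492).

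**Figure D3:**
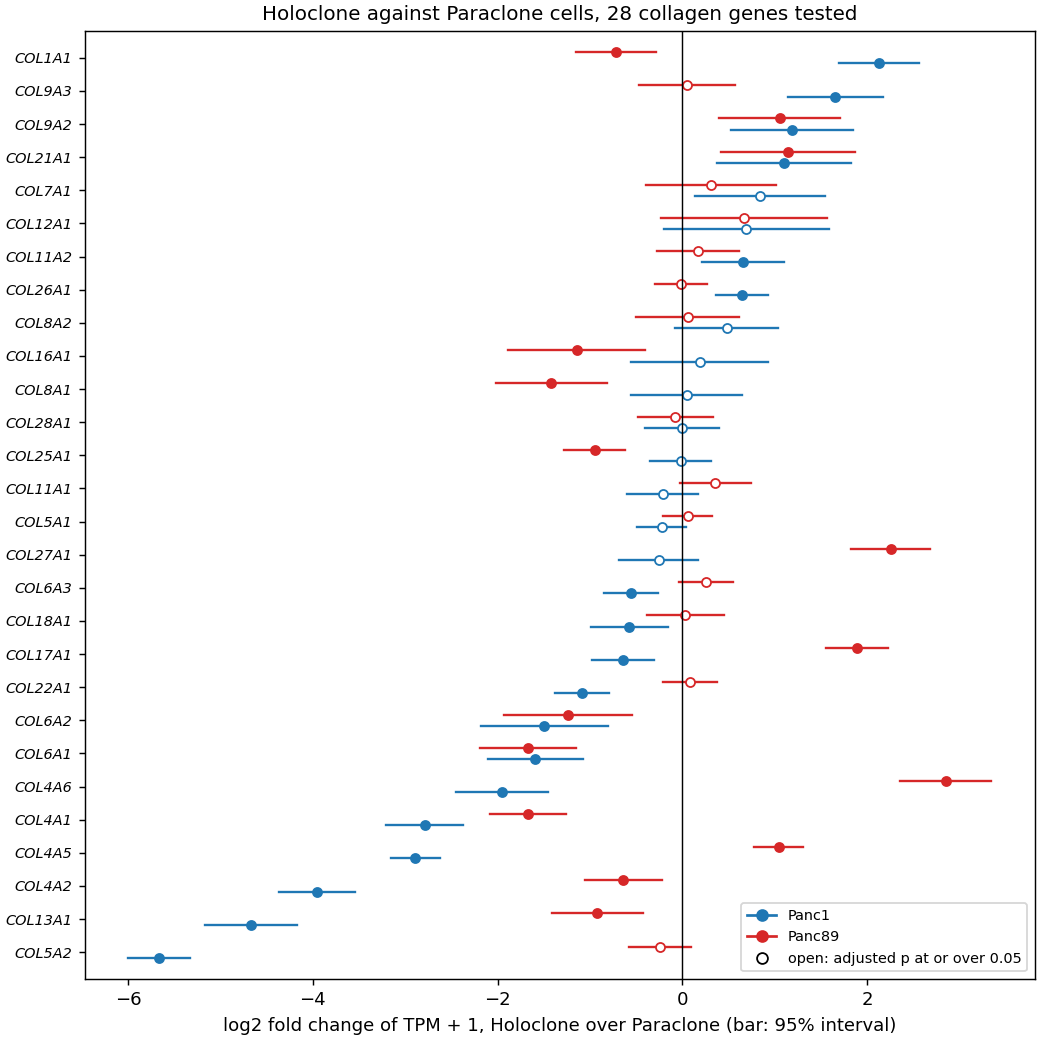
Log2 fold change of TPM + 1, Holoclone over Paraclone, for the 28 collagen genes tested in Panc1 (blue) and Panc89 (red) cells, with 95% intervals and filled points for an adjusted p under 0.05. The red points of COL4A5, COL4A6 and COL17A1 lie above 1 while their blue points lie below 0, and the COL1A1 points lie on the reverse sides.

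Each clone was also set against its own parental cells, which serve as control in both comparisons of a line. The Panc1 Holoclone differed from parental Panc1 in 8 members (1 higher, 7 lower), where the background was 10.9% of all genes, and the Panc1 Paraclone in 17 (10 higher, 7 lower), with a background of 28.6%. The Panc89 Holoclone differed from parental Panc89 in 11 members (4 higher, 7 lower), with a background of 24.7%, and the Panc89 Paraclone in 10 (4 higher, 6 lower), with a background of 19.4%. This last count fell to 5 without parental Panc89 replicate 1 and to 6 without replicate 3. Between the lines, 18 members differed in Holoclone cells (9 higher and 9 lower in Panc89, background 65.8%) and 20 in Paraclone cells (9 higher and 11 lower, background 60.7%).

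Type IV chains were low in parental Panc1 and Panc1 Holoclone cells and higher in the other groups. COL4A1 and COL4A2 encode the α1 and α2 chains that make the common basement membrane network. COL4A1 had 0.316, 0.360 and 0.899 TPM in parental Panc1, 0.421, 0.340 and 0.291 TPM in Panc1 Holoclone and 10.01, 8.42 and 6.80 TPM in Panc1 Paraclone cells. In Panc89, it had 17.8, 21.4 and 19.0 TPM in parental, 10.31, 7.78 and 8.59 TPM in Holoclone and 22.3, 34.7 and 36.1 TPM in Paraclone cells. The 3 Panc1 Paraclone libraries lay above all 6 other Panc1 libraries, and the Panc89 Holoclone libraries lay below all other Panc89 libraries. COL4A1 was lower in the Holoclone of both lines, with log2 fold changes of -2.79 ± 0.195 in Panc1 (adjusted p = 2.93e-08) and -1.67 ± 0.195 in Panc89 (adjusted p = 8.3e-06). It was higher in parental Panc89 than in parental Panc1 cells by 3.76 ± 0.195 (adjusted p = 1.24e-10).

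COL4A2 followed COL4A1 in Panc1 cells, with 1.42, 0.822 and 0.540 TPM in parental, 0.321, 0.796 and 0.546 TPM in Holoclone and 23.9, 22.8 and 22.1 TPM in Paraclone cells (log2 fold change of Holoclone against Paraclone -3.95 ± 0.195, adjusted p = 4.86e-10). In Panc89 it reached 55.0, 66.0 and 60.1 TPM in parental, 56.8, 45.7 and 44.6 TPM in Holoclone and 55.8, 90.7 and 88.4 TPM in Paraclone cells. The ranges of the Panc89 clones overlapped, since the lowest Paraclone library lay below the highest Holoclone library. The Panc89 change of -0.64 ± 0.195 passed the test (adjusted p = 0.018) but not with a pseudocount of 0.1 (adjusted p = 0.102), with these groups fitted alone (0.0963) or without single libraries (0.0617 to 0.0829, the libraries being Holoclone replicates 2 and 3 and Paraclone replicates 2 and 3). Between the parental lines COL4A2 differed by 5.02 ± 0.195 (adjusted p = 4.02e-12). The 2 chains did not keep 1 ratio: COL4A2 was 5.19 to 5.88 times the level of COL4A1 in Panc89 Holoclone libraries, compared to 3.08 to 3.16 in parental Panc89, 2.45 to 2.61 in Panc89 Paraclone and 2.39 to 3.24 in Panc1 Paraclone libraries. The annotated spans of these genes overlap on opposite strands, and the strand setting of the quantification is not given in the sources used here. Whether their exons overlap there was not examined, so the split of reads in the overlap is uncertain.

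COL4A5 and COL4A6 encode the α5 and α6 chains of the basement membranes of epithelial ducts and smooth muscle. COL4A5 had 3.73, 3.18 and 2.98 TPM in parental Panc1, 3.23, 2.81 and 2.57 TPM in Panc1 Holoclone and 28.5, 24.7 and 29.9 TPM in Panc1 Paraclone cells. In Panc89 it had 31.6, 25.1 and 26.9 TPM in parental, 51.7, 51.4 and 59.2 TPM in Holoclone and 24.7, 24.5 and 28.2 TPM in Paraclone cells. The Paraclone was thus the high group in Panc1 and the Holoclone in Panc89, without overlap with the other groups of the line. The Holoclone against Paraclone change was -2.89 ± 0.123 in Panc1 (adjusted p = 1.08e-10) and 1.04 ± 0.123 in Panc89 (adjusted p = 9.64e-06). The 2 Paraclones did not differ past the threshold (log2 fold change -0.10 ± 0.123, adjusted p = 0.508).

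COL4A6 showed the same order. Panc1 parental libraries had 0.0986, 0 and 0.0543 TPM and Panc1 Holoclone libraries 0.0684, 0.101 and 0.118 TPM, compared to 3.66, 3.12 and 2.95 TPM in Panc1 Paraclone libraries. Panc89 libraries had 9.96, 8.39 and 10.1 TPM in parental, 39.3, 37.9 and 35.4 TPM in Holoclone and 2.503, 7.98 and 3.86 TPM in Paraclone cells. All Panc89 Holoclone libraries lay above all other libraries of the series, and the Panc89 Paraclone libraries lay below the parental ones. The change from Paraclone to Holoclone was -1.95 ± 0.233 in Panc1 (adjusted p = 1.01e-05) and 2.85 ± 0.233 in Panc89 (adjusted p = 1.89e-07). Against parental Panc89, COL4A6 was higher by 1.88 ± 0.233 in Holoclone (adjusted p = 2.5e-05) and lower in Paraclone cells (-0.97 ± 0.233, adjusted p = 0.00777, and 0.138 with these groups fitted alone). COL4A5 was 1.32 to 1.67 times the level of COL4A6 in Panc89 Holoclone libraries, 2.65 to 3.17 times in parental Panc89 and 7.79 to 10.2 times in Panc1 Paraclone libraries. Thus, within Panc89 the pair on chromosome 13 was lower in the Holoclone, with the limits given for COL4A2, and the pair on chromosome X higher, while in Panc1 all 4 chains were lower in the Holoclone.

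**Figure D4:**
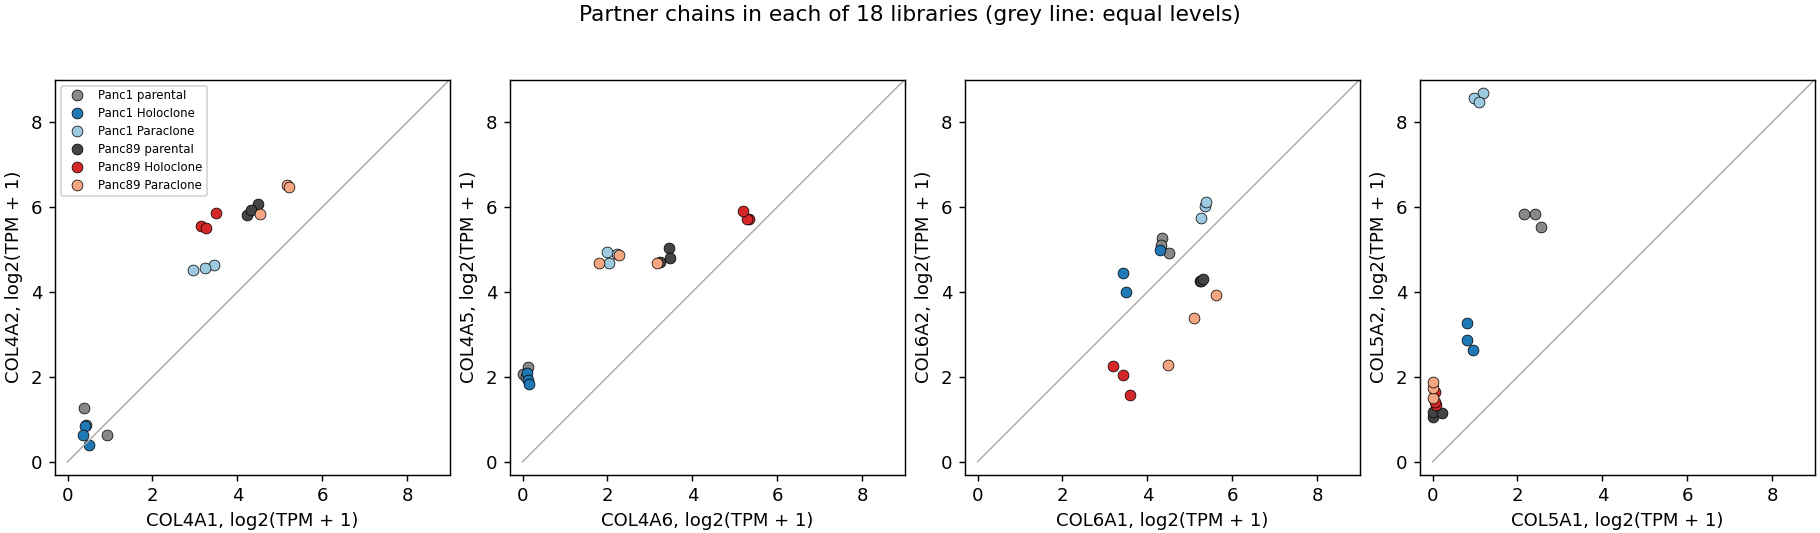
Each panel plots the log2(TPM + 1) levels of partner chains against each other in all 18 libraries, coloured by group, with a grey line at equal levels. COL4A1 with COL4A2 and COL4A6 with COL4A5 sit near the origin or at low levels in parental Panc1 and Panc1 Holoclone libraries, COL6A2 lies above COL6A1 in Panc1 and below it in Panc89 libraries, and COL5A2 reaches over 8 in Panc1 Paraclone libraries where COL5A1 is near 1.

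Among the membrane-anchored chains, COL17A1 separated the lines. COL17A1 (chr10:104031286-104085880, minus strand) encodes the hemidesmosomal collagen that fastens basal epithelial cells to the basement membrane. It was at most 0.206 TPM in parental Panc1 and 0.0899 TPM in Panc1 Holoclone libraries, and had 1.02, 0.638 and 0.341 TPM in Panc1 Paraclone libraries. Panc89 libraries had 60.1, 59.7 and 67.5 TPM in parental, 198.4, 159.6 and 138.2 TPM in Holoclone and 42.4, 39.6 and 48.7 TPM in Paraclone cells. Every Panc89 library lay above every Panc1 library, and the 3 Panc89 groups did not overlap. The parental lines differed by 5.82 ± 0.157 (adjusted p = 5.74e-14), the largest log2 fold change among the 28 members in that comparison. The Panc89 Holoclone was higher than the Panc89 Paraclone by 1.89 ± 0.157 (adjusted p = 2.35e-07) and higher than parental Panc89 by 1.38 ± 0.157 (adjusted p = 1.12e-05). In Panc1, where levels were around or under 1 TPM, the Holoclone was lower than the Paraclone (-0.64 ± 0.157, adjusted p = 0.0047).

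COL13A1 (chr10:69801880-69964275, plus strand), a transmembrane collagen found at cell-matrix and neuromuscular contacts, was largely a Panc1 Paraclone transcript. It had 56.6, 56.5 and 39.9 TPM there, compared to 3.69, 4.79 and 2.62 TPM in parental Panc1 and 0.751, 1.85 and 0.650 TPM in Panc1 Holoclone cells. The 3 Panc1 groups did not overlap. The Panc1 Holoclone was lower than the Paraclone by 4.67 on the log2 scale (-4.67 ± 0.232, adjusted p = 5.33e-10). In Panc89 the values were 0.09998, 0.307 and 0.0816 TPM in parental, 0.0155, 0.0725 and 0 TPM in Holoclone and 1.44, 0.555 and 0.941 TPM in Paraclone cells. The direction between clones was the same in Panc89 (-0.92 ± 0.232, adjusted p = 0.00574), and the difference between the lines of 3.75 ± 0.328 passed the test (adjusted p = 4.86e-07). The Panc89 values were around 1 TPM or below, where the added 1 makes changes too small. The size of the difference between the lines therefore depends on the added 1, and whether the fold change in TPM itself differed was not tested. Mean levels in Holoclone and Paraclone cells were 1.08 and 50.99 TPM in Panc1 and 0.0293 and 0.980 TPM in Panc89. The bases upstream of both genes are shown since the results on membrane-anchored chains turn on these genes, with TATAAA and CCAAT matches on either strand in capitals. They are chr10:69801656-69801879 (224 bases, plus strand) for COL13A1 and chr10:104085881-104086130 (250 bases, minus strand) for COL17A1.
COL13A1 upstream: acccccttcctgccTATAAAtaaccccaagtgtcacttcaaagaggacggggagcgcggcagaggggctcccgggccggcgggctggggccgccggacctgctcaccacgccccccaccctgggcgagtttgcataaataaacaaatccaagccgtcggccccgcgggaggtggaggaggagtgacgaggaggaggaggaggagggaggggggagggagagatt
COL17A1 upstream: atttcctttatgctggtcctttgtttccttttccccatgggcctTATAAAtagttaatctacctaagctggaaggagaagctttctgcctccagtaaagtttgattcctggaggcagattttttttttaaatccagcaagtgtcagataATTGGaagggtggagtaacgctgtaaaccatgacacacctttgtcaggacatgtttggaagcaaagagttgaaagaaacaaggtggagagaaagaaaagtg
Each held 1 TATAAA, which 8.52% and 10.8% of windows hold at these lengths, and the COL17A1 region held 1 CCAAT (32% of windows). Their GC contents of 65.6% and 40.4% lay at percentiles 70.6 and 14.2 of all windows. No GGGCGG or CACCTG was found in either.

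Another membrane-anchored chain, COL25A1, was listed at 0 in all parental Panc1 libraries and at most at 0.0407 TPM in Panc1 clones. In Panc89 it had 1.64, 0.601 and 1.47 TPM in parental and 1.004, 1.202 and 0.803 TPM in Paraclone cells, whereas the highest Holoclone value was 0.0787 TPM (Holoclone against Paraclone -0.95 ± 0.155, adjusted p = 0.000203).

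COL18A1 (chr21:45405165-45513720, plus strand), the proteoglycan collagen that carries endostatin, was the most abundant collagen transcript in all Panc1 libraries. It had 475.0, 531.6 and 487.1 TPM in parental, 570.7, 510.4 and 525.2 TPM in Holoclone and 673.1, 833.8 and 900.3 TPM in Paraclone cells of Panc1. Panc89 libraries had 34.5, 22.1 and 32.5 TPM in parental, 10.5, 11.4 and 9.37 TPM in Holoclone and 10.5, 7.11 and 14 TPM in Paraclone cells. The lowest Panc1 library lay far above the highest Panc89 library. Parental Panc89 was lower than parental Panc1 by 4.05 (log2 fold change -4.05 ± 0.196, adjusted p = 5.29e-11). Both Panc89 clones were lower than parental Panc89, with -1.40 ± 0.196 (adjusted p = 7.64e-05) in Holoclone and -1.43 ± 0.196 (adjusted p = 9.58e-05) in Paraclone cells. The Panc1 Holoclone was lower than the Paraclone (-0.57 ± 0.196, adjusted p = 0.0303). That call was lost without a filter on low values (adjusted p = 0.0568) and without Holoclone replicate 2 or 3 or Paraclone replicate 2 or 3 (0.0772 to 0.112). The Panc89 clones did not differ past the threshold (0.03, 95% interval -0.39 to 0.45).

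The largest Holoclone against Paraclone change among the 28 members in either line was that of the fibrillar chain COL5A2 in Panc1, while the median absolute change of the 6 fibrillar chains tested was 0.46 in Panc1 and 0.30 in Panc89. COL5A2 (chr2:189031898-189225312, minus strand) encodes the α2 chain of type V collagen, which regulates the diameter of type I fibrils. It had 412.0, 377.0 and 357.5 TPM in Panc1 Paraclone libraries, compared to 55.8, 45.4 and 56.1 TPM in parental Panc1 and 5.16, 8.57 and 6.32 TPM in Panc1 Holoclone libraries. In Panc89, all 9 libraries lay between 1.06 and 2.68 TPM. The 3 Panc1 groups did not overlap, with the parental cells between the clones. The Panc1 Holoclone was lower than the Paraclone (-5.66 ± 0.157, adjusted p = 1.48e-12) and lower than parental Panc1 (-2.82 ± 0.157, adjusted p = 1.38e-08), while the Paraclone was higher than parental Panc1 (2.85 ± 0.157, adjusted p = 3e-09). The Panc89 clones did not differ past the threshold (-0.24, 95% interval -0.58 to 0.09), and the difference between the lines was 5.42 ± 0.222 (adjusted p = 1.72e-10).

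Type V collagen usually contains the product of COL5A1 as well, and this partner did not follow COL5A2 in the Panc1 Paraclone. COL5A1 had 4.36, 4.89 and 3.45 TPM in parental Panc1, 0.924, 0.749 and 0.770 TPM in Holoclone and 1.29, 0.962 and 1.12 TPM in Paraclone cells. Both Panc1 clones were lower than parental Panc1 (Holoclone -1.52 ± 0.124, adjusted p = 9.73e-07, Paraclone -1.29 ± 0.124, adjusted p = 1.54e-06). COL5A2 was 9.29 to 16.3 times the level of COL5A1 in parental Panc1, 5.58 to 11.4 times in Panc1 Holoclone and 319 to 392 times in Panc1 Paraclone libraries. In Panc89 libraries COL5A1 was at most 0.169 TPM. COL3A1, which lies tail to tail with COL5A2 on chromosome 2 with a gap of 19151 bases, was at most 0.324 TPM in any library and thus did not share the high COL5A2 level of the Panc1 Paraclone.

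COL1A1 (chr17:50184101-50201632, minus strand) encodes the α1 chain of type I collagen, the main collagen of the interstitial stroma. It had 11.9, 14.3 and 12.6 TPM in parental Panc1, 7.94, 9.19 and 6.32 TPM in Panc1 Holoclone and 1.13, 0.923 and 0.969 TPM in Panc1 Paraclone cells. Panc89 libraries had 26.1, 20.3 and 24.9 TPM in parental, 20.9, 9.66 and 15.6 TPM in Holoclone and 25.8, 23.1 and 25.7 TPM in Paraclone cells. The Panc1 Paraclone was the lowest group of the series without overlap, and the parental Panc89 range overlapped those of both Panc89 clones. The Holoclone was higher than the Paraclone in Panc1 (2.12 ± 0.204, adjusted p = 1.03e-06) and lower in Panc89 (-0.72 ± 0.204, adjusted p = 0.0117). The Panc89 call was lost with these groups fitted alone (adjusted p = 0.122) and without Holoclone replicate 2 (adjusted p = 0.0637). The difference between the lines was -2.84 ± 0.288 (adjusted p = 2.11e-06). The partner chain COL1A2 was at most 0.172 TPM in any library, so that the level of the α1 chain had no counterpart from COL1A2.

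**Figure D5:**
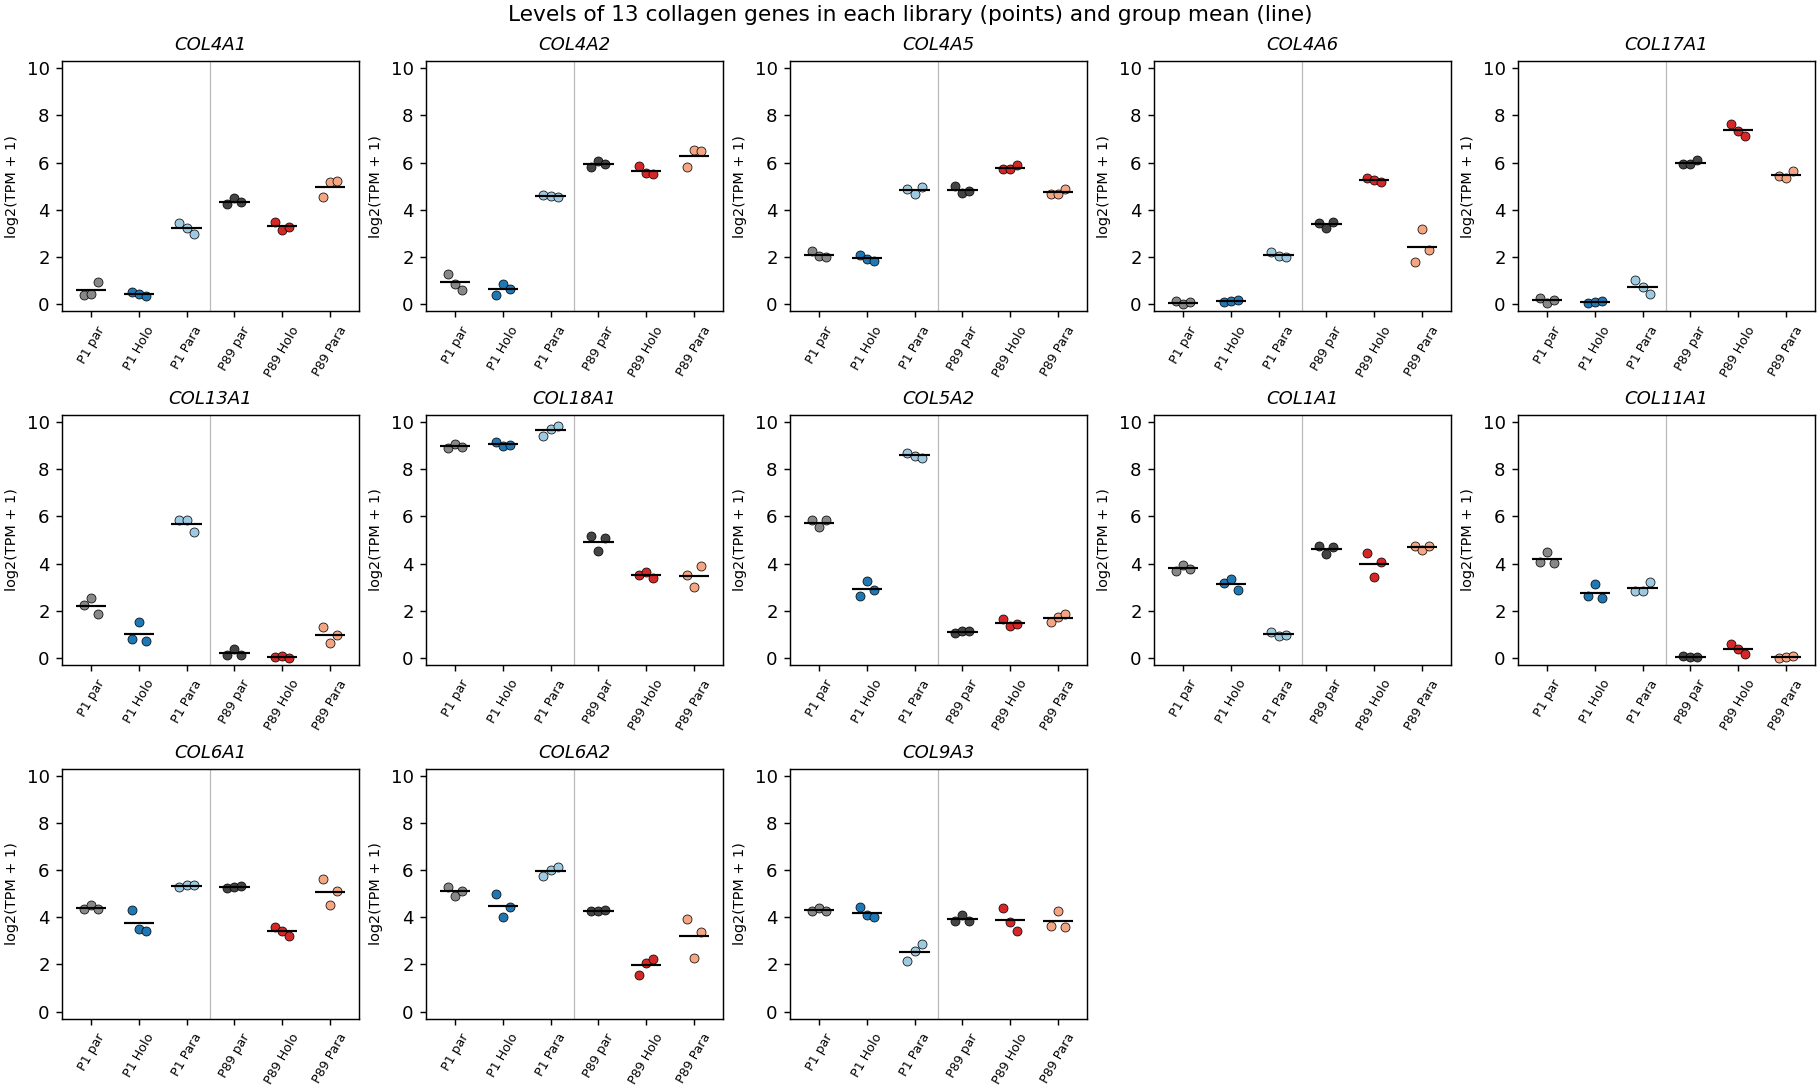
Log2(TPM + 1) of 13 collagen genes in each library (points) with the group mean (line), the Panc1 groups left and the Panc89 groups right of the vertical line. COL5A2, COL13A1, COL4A1 and COL4A2 are high in Panc1 Paraclone libraries and low in Panc1 Holoclone libraries, COL17A1 and COL4A6 peak in Panc89 Holoclone libraries, and COL1A1 is lowest in Panc1 Paraclone libraries.

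COL11A1 (chr1:102876467-103108872, minus strand), a minor fibrillar chain known as a marker of cancer-associated stroma, was highest in parental Panc1 cells. It had 15.7, 21.5 and 15.2 TPM in parental, 5.11, 7.83 and 4.82 TPM in Holoclone and 6.23, 6.19 and 8.43 TPM in Paraclone cells of Panc1, and at most 0.509 TPM in any Panc89 library. The parental Panc1 libraries lay above both clones, which overlapped each other. Both Panc1 clones were lower than parental Panc1 (Holoclone -1.43 ± 0.180, adjusted p = 8.79e-05, Paraclone -1.21 ± 0.180, adjusted p = 0.000141). The parental lines differed by -4.14 ± 0.180 (adjusted p = 1.57e-11). In Panc89, the Holoclone values of 0.509, 0.312 and 0.137 TPM all lay above the Paraclone values of 0, 0.0185 and 0.0569 TPM. That change of 0.35 did not pass (adjusted p = 0.143), whereas it was 1.67 with a pseudocount of 0.1 and passed there (adjusted p = 0.000865). The other fibrillar member with a large change was COL27A1, which was highest in Panc89 Holoclone cells with 10.4, 6.78 and 6.33 TPM against 0.829, 0.954 and 0.668 TPM in Panc89 Paraclone cells (2.25 ± 0.202, adjusted p = 4.99e-07). COL11A2 stayed at or under 1.78 TPM in all libraries.

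Type VI collagen is assembled from α1, α2 and α3 chains into microfibrils that link cells to the matrix. COL6A1 (chr21:45981770-46005050, plus strand) had 19.3, 21.7 and 19.1 TPM in parental Panc1, 18.8, 10.2 and 9.72 TPM in Panc1 Holoclone and 37.5, 39.8 and 40.5 TPM in Panc1 Paraclone cells. Panc89 libraries had 37.1, 37.7 and 38.9 TPM in parental, 11.01, 9.78 and 8.14 TPM in Holoclone and 48.1, 21.6 and 33.6 TPM in Paraclone cells. In both lines all Holoclone libraries lay below all Paraclone libraries, although the Panc89 Paraclone libraries were widely spread. The Holoclone was lower in Panc1 (-1.59 ± 0.243, adjusted p = 0.000108) and in Panc89 (-1.67 ± 0.243, adjusted p = 6.98e-05).

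COL6A2 (chr21:46098112-46132848, plus strand) had 37.7, 29.0 and 33.7 TPM in parental, 30.6, 14.9 and 20.8 TPM in Holoclone and 52.8, 63.8 and 69.0 TPM in Paraclone cells of Panc1. In Panc89 the values were 18.1, 18.3 and 18.6 TPM in parental, 1.97, 3.16 and 3.76 TPM in Holoclone and 14.1, 3.86 and 9.46 TPM in Paraclone cells. The Holoclone libraries again lay below the Paraclone libraries in both lines. The change was -1.49 ± 0.325 in Panc1 (adjusted p = 0.00194) and -1.24 ± 0.325 in Panc89 (adjusted p = 0.00745, and 0.113 with these groups fitted alone). Parental Panc89 was lower than parental Panc1 by 0.83 (-0.83 ± 0.325, adjusted p = 0.0349). This parental call was lost under upper quartile (adjusted p = 0.103) and median-of-ratios scaling (0.154), with a pseudocount of 0.1 (0.0509) and without a filter (0.0664). The replicate number as a block removed it as well (0.106), as did leaving out any 1 parental library except Panc1 replicate 2 (0.067 to 0.0996). COL6A2 was 1.34 to 2.14 times the level of COL6A1 in the Panc1 libraries and 0.179 to 0.489 times in the Panc89 libraries.

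The α3 partner COL6A3 was much lower than both. It had 1.01, 1.69 and 1.06 TPM in parental Panc1, 0.650, 0.481 and 0.514 TPM in Panc1 Paraclone and at most 0.453 TPM in all other libraries. The Panc1 Holoclone values of 0.0541, 0.0843 and 0.0155 TPM lay below the Paraclone values (-0.56 ± 0.138, adjusted p = 0.00482).

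COL9A3 (chr20:62816244-62841159, plus strand) encodes a chain of type IX collagen, a FACIT collagen best known from cartilage. It had 18.4, 19.8 and 18.2 TPM in parental Panc1, 20.8, 16.2 and 15.2 TPM in Holoclone and 3.47, 4.89 and 6.38 TPM in Paraclone cells. All Panc89 libraries lay between 9.70 and 20.1 TPM with overlapping groups. Thus, only the Panc1 Paraclone stood apart among the 6 groups, with a Holoclone against Paraclone change of 1.66 ± 0.244 in Panc1 (adjusted p = 7.46e-05), 0.05 (95% interval -0.47 to 0.57) in Panc89 and a difference between the lines of -1.61 ± 0.344 (adjusted p = 0.00191). The partner COL9A2 was higher in the Holoclone of Panc1 (1.19 ± 0.310, adjusted p = 0.00671) and Panc89 (1.05 ± 0.310, adjusted p = 0.0148, and 0.063 and 0.0559 without Panc89 Holoclone or Paraclone replicate 1). Its group means lay between 0.876 and 4.67 TPM. COL9A1, the chain needed for the common form of type IX collagen, was at most 0.167 TPM.

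The remaining tested members had low levels. Among FACIT chains, COL21A1 was higher in the Holoclone of Panc1 (1.10 ± 0.341, adjusted p = 0.0183) and of Panc89 (1.15 ± 0.341, adjusted p = 0.0154, and 0.179 with the Panc89 clones fitted alone), where replicate 3 with 4.47 TPM stood above 0.328 and 0.776 TPM and the change without it was 0.54. COL22A1 was a Panc1 transcript with means of 1.83 TPM in parental, 0.379 TPM in Holoclone and 1.92 TPM in Paraclone cells. COL12A1 was higher in parental Panc89 than in parental Panc1 (1.67 ± 0.420, adjusted p = 0.0025), and COL16A1 was lower in the Panc89 Holoclone than in the Paraclone (-1.14 ± 0.349, adjusted p = 0.0179, and 0.0561 and 0.054 without Paraclone replicate 1 or 2). COL28A1, a von Willebrand factor domain collagen, was at most 0.152 TPM in Panc1 and had means of 7.41 to 10.5 TPM in Panc89 groups. COL26A1 showed the reverse, with means of 3.38 to 8.01 TPM in Panc1 groups and at most 0.0931 TPM in Panc89. The network chain COL8A1 was highest in Panc89 Paraclone cells with 2.42, 9.84 and 4.01 TPM, above 0.780 to 1.63 TPM in the Holoclone (-1.42 ± 0.283, adjusted p = 0.00104, and 0.0752 with these groups fitted alone). COL8A2 was lower in parental Panc89 than in parental Panc1 cells (-0.93 ± 0.263, adjusted p = 0.0057). COL7A1, the anchoring fibril chain that links basement membrane to stroma, did not pass between the parental lines, between the clones of either line or in the difference between lines and had group means of 1.26 to 5.27 TPM, although the Panc1 Paraclone was lower than parental Panc1 (-1.39 ± 0.329, adjusted p = 0.00534, and 0.0669 with these groups fitted alone). COL7A1 was also higher in the Panc89 than in the Panc1 Paraclone (1.04 ± 0.329, adjusted p = 0.0121), a call that was lost without Panc1 Paraclone replicate 2 (0.0561) or Panc89 Paraclone replicate 1 (0.0559).

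Collagen chains are modified and folded in the endoplasmic reticulum before secretion. Of 25 genes of biosynthesis and secretion, all tested, 4 were higher and 13 lower in the Panc1 Holoclone than in the Paraclone, and 10 were higher and 3 lower in the Panc89 Holoclone (8 and 4 after median-of-ratios scaling). Without this scaling these were 68% and 52% of the list, where the background was 37.3% and 35.7% of all genes. The median change was -0.40 in Panc1 and 0.33 in Panc89, compared to 0.19 and 0.09 for all genes. After median-of-ratios scaling the list medians were -0.66 and 0.20, compared to 0 and -0.001 for all genes. In the test of the difference between the lines, 14 were more positive and 1 more negative in Panc89, or 60% of the list against a background of 35.1%. The lysyl hydroxylase gene PLOD2 had 63.7, 93.7 and 65.1 TPM in Panc1 Holoclone and 280.8, 216.0 and 223.1 TPM in Panc1 Paraclone cells (-1.69 ± 0.345, adjusted p = 0.00117). PLOD1, another lysyl hydroxylase gene, changed by -1.98 ± 0.257 (adjusted p = 2.32e-05) and the prolyl hydroxylase subunit P4HA2 by -1.39 ± 0.237 (adjusted p = 0.000289). In Panc89, SEC24D, a coat component needed for the export of large procollagens, had 34.5, 35.9 and 64.8 TPM in Holoclone and 11.02, 8.12 and 9.69 TPM in Paraclone cells (2.07 ± 0.255, adjusted p = 1.43e-05). P4HA2 was lower (-1.21 ± 0.237, adjusted p = 0.000918) and the collagen galactosyltransferase COLGALT1 higher (0.84 ± 0.196, adjusted p = 0.00342). Between parental lines 7 were higher and 12 lower in Panc89 (76%, background 66.0%), led by CREB3L1 (-3.23 ± 0.174, adjusted p = 1.89e-10), P3H1 (-2.51 ± 0.191, adjusted p = 1.18e-08) and SEC24D (1.46 ± 0.255, adjusted p = 0.00011).

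Of 17 genes of extracellular processing and crosslinking, 11 were tested. In Panc1, 2 were higher and 4 lower in the Holoclone, and in Panc89, 3 were higher and 4 lower, or 54.5% and 63.6% of those tested against a background of 37.3% and 35.7%. TGM2, a transglutaminase that crosslinks matrix proteins, was lower in the Holoclone of both lines (Panc1 -1.66 ± 0.212, adjusted p = 1.99e-05, Panc89 -2.40 ± 0.212, adjusted p = 4.35e-07). PXDN, the peroxidase that forms sulfilimine bonds between type IV collagen molecules, had 20.5, 14.4 and 15.9 TPM in Panc89 Holoclone cells and 0, 0.227 and 0.00478 TPM in Panc89 Paraclone cells (4.05 ± 0.213, adjusted p = 1.42e-09). LOXL4, a lysyl oxidase family gene, was lower in the Panc89 Holoclone (-3.37 ± 0.200, adjusted p = 5.52e-09) and in the Panc1 Holoclone (-0.96 ± 0.200, adjusted p = 0.00142). LOXL2 was likewise lower in the Holoclone of Panc1 (-1.47 ± 0.296, adjusted p = 0.00108) and Panc89 (-1.96 ± 0.296, adjusted p = 9.97e-05). LOXL1 was lower in the Panc1 Holoclone (-1.14 ± 0.196, adjusted p = 0.000308) and higher in the Panc89 Holoclone (0.93 ± 0.196, adjusted p = 0.00165). Between parental lines 4 were higher and 4 lower in Panc89 (72.7%, near the background of 66.0%), with LOX (3.72 ± 0.262, adjusted p = 4.88e-09) and the procollagen C-proteinase BMP1 (2.89 ± 0.176, adjusted p = 8.39e-10) higher and LOXL1 lower (-3.36 ± 0.196, adjusted p = 5.09e-10).

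Of 13 collagen receptor and uptake genes, 11 were tested. In the Panc1 Holoclone, 1 was higher and 7 were lower than in the Paraclone (0 and 7 after median-of-ratios scaling), with a median change of -1.04 against 0.19 for all genes. This was 72.7% of those tested, where the background was 37.3%. ITGA2, the α2 integrin chain of a collagen receptor, had 14.2, 15.7 and 11.4 TPM in Panc1 Holoclone and 154.4, 105.7 and 100.0 TPM in Panc1 Paraclone cells (-3.02 ± 0.167, adjusted p = 1.81e-09). ADGRG1, an adhesion receptor that binds type III collagen, was lower in the Panc1 Holoclone (-3.40 ± 0.169, adjusted p = 5.43e-10) and higher in the Panc89 Holoclone (1.55 ± 0.169, adjusted p = 4.36e-06). MRC2, which takes up collagen for degradation, was lower in the Panc1 Holoclone (-1.15 ± 0.305, adjusted p = 0.00742) and in parental Panc89 against parental Panc1 (-4.68 ± 0.305, adjusted p = 1.92e-09). In Panc89, 1 was higher and 2 were lower in the Holoclone (27.3%, under the background of 35.7%), the latter being ITGA1 (-1.36 ± 0.281, adjusted p = 0.00139) and ITGB1 (-0.55 ± 0.109, adjusted p = 0.000936), which together form another collagen-binding integrin. The difference between the lines passed for 7 of the 11 (63.6%, background 35.1%), of which 6 were more positive in Panc89. Between parental lines 3 were higher and 6 lower in Panc89 (81.8%, background 66.0%). Besides MRC2, these included ADGRG1, which was higher (3.52 ± 0.169, adjusted p = 5e-11), and OSCAR, which was lower (-3.34 ± 0.856, adjusted p = 0.00284).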

How the data were processed

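RNA of the 6 groups, each from 3 passages, was prepared as stranded mRNA libraries. Transcripts were quantified by the authors with kallisto 0.46.1 on Ensembl GRCh38 and imported as scaled TPM, and the deposited values are log2(TPM + 1), 1 per gene symbol and library. The values were converted back to TPM for levels. Library depth is not kept in TPM, so precision rests on the 3 libraries per group. Groups came from the deposited labels, and no column was left without a sample.

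Group means were fitted to the deposited log2 values with limma 3.58.1 (lmFit, eBayes with trend) in R 4.3.3, over all 18 libraries and the 16093 genes that reached 1 TPM in 3 or more of them. Tests were two-sided, with Benjamini-Hochberg adjustment over all genes tested and a threshold of 0.05, and were tested on simulated data. A log scale was used because the values are TPM and not counts.

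The members and the gene lists were chosen with earlier results of these data known. Named with values per library were COL4A1, COL4A2, COL5A2 and COL1A1, members that passed in the parental, clone or line difference tests with a mean of 10 TPM or more in the group with the higher level, and partner chains. From each other list, the 3 largest changes that passed with at least 10 TPM were named between the parental lines and between the clones of each line. Some of these genes were also given for the other line. No gene of these lists was named for the difference between the lines. COL25A1, COL27A1, COL8A1, COL21A1 and the other low members were named to account for all 44, after their values were seen.

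Alternatives were upper quartile and median-of-ratios scaling, a pseudocount of 0.1, no filter or at least 5 TPM, the compared groups alone, the replicate number as a block, an absolute log2 fold change over 1 and leaving out each library. Positions were taken from GENCODE 44 and start windows from RefSeq, both on GRCh38. Windows hold 250 bases before to 50 after a start, and motif shares count windows of equal printed length.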

Additional observations from a re-analysis of the deposited data

Results flagged for a closer look

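For 9 of the named collagen genes, the Holoclone against Paraclone change differed between the lines in the interaction term of limma (Panc89 minus Panc1, log2 scale, adjusted p under 0.05). The difference was positive for COL5A2 (5.42), COL4A6 (4.80), COL4A5 (3.93), COL13A1 (3.75), COL4A2 (3.31), COL17A1 (2.53) and COL4A1 (1.12). It was negative for COL1A1 (-2.84) and COL9A3 (-1.61). COL4A5, COL4A6, COL17A1 and COL1A1 had changes of opposite sign that passed the test in each line, that of COL1A1 in Panc89 not under every alternative. COL4A1, COL4A2 and COL13A1 were lower in the Holoclone of both lines, the Panc89 change of COL4A2 not passing under every alternative. Their changes differed in size on the log2(TPM + 1) scale. COL13A1 was at most 1.44 TPM in Panc89 libraries, where the added 1 makes changes too small. Its mean levels in Holoclone and Paraclone cells were 1.08 and 50.99 TPM in Panc1 and 0.0293 and 0.980 TPM in Panc89. Whether its fold change in TPM itself differed between the lines was not tested. COL4A1, COL4A2, COL4A6 and COL17A1 had means of 0.35, 0.55, 0.096 and 0.055 TPM in the Panc1 Holoclone. The sizes of the differences of these genes and of COL13A1 therefore depend on the added 1. For COL5A2 and COL9A3 the change passed in Panc1 and not in Panc89. Each clonal variant was 1 clone, so a difference between lines and a difference between the clones picked from them cannot be told apart.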

How the results depend on the processing

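Of 754 values of the named genes under the alternatives, spread over 52 log2 fold changes, 708 kept direction and side of the threshold, 24 lost significance, 7 gained it and 15 changed sign. All sign changes concerned 4 differences that had not passed the test. For the Panc89 clones, the change of COL18A1 was 0.03 and became -0.07 with upper quartile and -0.10 with median-of-ratios scaling, and -0.20 to 0.24 when single libraries were left out. That of COL9A3 was 0.05 and became -0.053 with upper quartile and -0.082 with median-of-ratios scaling, and -0.21 to 0.28 without single libraries. The difference between the lines was -0.08 for COL6A1, 0.048 and 0.040 under these scalings and -0.37 to 0.20 without single libraries, and for COL6A2 it was 0.26 and -0.20 to 0.62.

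The count of called members moved by more than 1.5 times in 3 comparisons with parental cells. With the groups fitted alone it went from 15 to 10 between the Panc89 clones and from 11 to 8 for the Panc89 Holoclone against parental cells. For the Panc1 Holoclone it was 8 and became 5 with at least 5 TPM required, where fewer genes are tested. For the Panc1 Paraclone it was 17 and became 11 with an absolute log2 fold change over 1. For the Panc89 Paraclone it was 10 and became 5 with these groups fitted alone, 5 with an absolute log2 fold change over 1 and 5 to 10 without single libraries, and the cause was not tested. After median-of-ratios scaling the summed collagen level was 617.7 TPM in parental Panc1, 556.9 in Panc1 Holoclone, 362.4 in parental Panc89 and 339 TPM in Panc89 Paraclone cells. The Panc1 Paraclone libraries had factors of 0.927 to 0.981, and division by these raises their sums. In the Panc89 Holoclone the factors were 0.958 to 1.12.

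Deviations of same-numbered libraries of a line from their group means correlated between -0.318 and 0.19, and for Panc89 replicate 3 between 0.0342 and 0.19. With 3 libraries per group, these values cannot settle whether the replicate number paired the libraries. With the number as a replicate block within each line, 21 members were called between parental lines, 19 between Panc1 clones, 15 between Panc89 clones and 15 for the difference between lines. Against parental cells, the block gave 8 and 15 members in the Panc1 Holoclone and Paraclone and 11 and 8 in the Panc89 Holoclone and Paraclone, and 16 and 20 between Holoclones and between Paraclones.

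Without Panc89 parental replicate 2 the parental difference of COL16A1 went from 1.02 to 1.61 and that of COL9A2 from 0.76 to 1.17. The COL16A1 call (adjusted p = 0.017) was lost without parental Panc1 replicate 3 or Panc89 replicate 1 or 3 (0.0537 to 0.0969). It was also lost with these groups fitted alone (0.108). The COL9A2 call (adjusted p = 0.0421) was lost without replicate 1 or 3 of either parental line (0.0763 to 0.185). A pseudocount of 0.1, no filter, these groups fitted alone and the replicate block removed it as well (0.0506 to 0.132). Without Panc1 Paraclone replicate 3 the COL8A2 difference between Paraclones went from -0.78 to -0.48 (adjusted p = 0.114). Against parental Panc89, COL1A1 in the Holoclone went from -0.65 to -0.37 (0.151) without Holoclone replicate 2, and COL6A2 in the Paraclone from -1.08 to -0.62 (0.0918) without Paraclone replicate 2.

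TPM keep no depth, so counting error of low chains is unknown, and chains near 1 TPM depend on the pseudocount.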
